A study of Mus musculus with 12 samples.

Results

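RNA from the mitochondrial genome was followed in mouse embryonic stem (ES) cells during treatment with Ink128, an inhibitor of the growth-controlling kinase mTOR. The genes described are the 37 that the deposited files place on chromosome M, of 54446 genes listed in all: 13 protein genes, 2 rRNA genes and 22 tRNA genes. They were chosen by chromosome and not by their values, although earlier results of these data were known. Total RNA was sequenced after depletion of ribosomal RNA in 12 libraries, 2 for each of 6 groups. The values are TPM, a gene's length-corrected share of its library's RNA on a scale that sums to 1000000. With spike-in RNA, the study reports that global transcription decreased under the inhibitor in wild-type and mutant cells. Rises and falls below are changes of share, and a gene can rise in share without more RNA per cell.

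The wild-type line is labelled KH and the mutant line DNMT3ABKO, which lacks Dnmt3a and Dnmt3b, the enzymes that set new DNA methylation. Each was sampled untreated (0 h) and after 72 h and 144 h in Ink128. Each genotype was 1 line, so genotype and line cannot be told apart, and no untreated culture was sampled at 72 h or 144 h, so treatment and time in culture cannot be told apart either. Both line names carry the prefix E14 in the labels, but in the methods of the study the wild type is KH2, grown like the mutant on feeder fibroblasts and sorted as viable single cells. Nothing in the labels ties the 2 replicates of a group to separate cultures, so p-values measure only the spread between these libraries.

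The mitochondrial genome is a small circle whose strands are each transcribed as long precursors by the RNA polymerase Polrmt with the factors Tfam and Tfb2m. Most of its protein and rRNA genes are separated by tRNA genes, and the precursors are cut at those tRNAs to free the mRNAs and rRNAs. Its mRNAs encode subunits of the respiratory chain (complexes I, III and IV) and of ATP synthase (complex V), which assemble with subunits encoded in the nucleus, and in ES cells they are among the most abundant transcripts.

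In the annotation 28 of the 37 genes lay on the plus strand and 9 on the minus strand. Of the protein genes, 12 were on the plus strand and mt-Nd6 was the exception. The genome is so compact that neighbouring genes share bases, and 4 such places bear on the values given here. Sequences were read from GENCODE M21 transcripts (GRCm38, the assembly also called mm10) and are written 5′ to 3′ on each gene's own strand. Capitals mark the bases that lie in both genes of a pair.
The first pair is the ends of mt-Nd6 and mt-Nd5, which face each other on opposite strands and share 14 bases; mt-Nd6 is shown at chrM:13552-13611 and mt-Nd5 at chrM:13506-13565.
mt-Nd6: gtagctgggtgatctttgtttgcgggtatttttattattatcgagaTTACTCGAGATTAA
mt-Nd5: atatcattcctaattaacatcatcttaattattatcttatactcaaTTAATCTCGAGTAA
The second is mt-Ts1, the gene with the highest value of the tRNA group, shown whole at chrM:6870-6938 beside the end of mt-Co1 at chrM:6813-6872, with 3 shared bases on opposite strands.
mt-Ts1: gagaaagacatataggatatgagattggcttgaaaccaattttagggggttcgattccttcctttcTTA
mt-Co1: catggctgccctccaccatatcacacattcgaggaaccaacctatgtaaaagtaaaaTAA
The third is mt-Tq at chrM:3772-3842, a gene whose value was lower after treatment in KH cells, and its opposite-strand neighbour mt-Ti at chrM:3706-3774, again with 3 shared bases.
mt-Tq: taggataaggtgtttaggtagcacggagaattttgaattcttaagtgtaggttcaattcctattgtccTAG
mt-Ti: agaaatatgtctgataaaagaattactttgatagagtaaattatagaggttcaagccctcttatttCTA
The fourth is mt-Atp8 (chrM:7766-7969, plus strand), whose last 43 bases are also the start of mt-Atp6 on the same strand and in the same mRNA.
mt-Atp8: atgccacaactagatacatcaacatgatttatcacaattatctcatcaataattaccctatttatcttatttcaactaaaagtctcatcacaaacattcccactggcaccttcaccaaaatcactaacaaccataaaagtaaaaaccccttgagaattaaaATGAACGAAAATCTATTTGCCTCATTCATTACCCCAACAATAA
The setting that assigns reads to a strand was not given in the sources used here. Reads of a gene and of its partner on the opposite strand therefore cannot be told apart, which applies to mt-Nd6 and to the 8 tRNA genes of the minus strand.

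Part of the mitochondrial genome has a near-identical copy in the nucleus. A block on chromosome 1, chr1:24611535-24616197, copies positions 6390 to 11042 of chromosome M and is annotated as 7 pseudogenes, each at least 98% identical to its source. The TPM listed for a copy was close to that of its source in every library, from 1.00 to 1.00 times for Gm28437 over mt-Co3, 1.00 to 1.01 times for Gm28661 over mt-Co2, 1.03 to 1.06 times for Gm10925 over mt-Atp6, 1.02 to 1.02 times for Gm28438 over mt-Nd3 and 1.01 to 1.02 times for Gm10222 over mt-Nd4l. Gm29216 and Gm28439, which copy only parts of mt-Co1 and mt-Nd4, lay at 0.419 to 0.510 and 0.442 to 0.557 times. Only mt-Co1 and mt-Nd3 differ from their copy within the aligned bases, each at 1 position. The substitutions are A1066T for mt-Co1 and T3C for mt-Nd3, with the mitochondrial base first, the position counted from the gene's first base, and the base of the copy last. The sequences show how little separates a read of one from a read of the other, with the differing base in capitals, and begin at position 1046 of mt-Co1 and at position 1 of mt-Nd3, Gm29216 and Gm28438. The first bases of Gm29216, up to the gga before the capital, lie outside its alignment with mt-Co1.
mt-Co1: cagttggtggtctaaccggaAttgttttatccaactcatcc
Gm29216: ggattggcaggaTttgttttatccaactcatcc
mt-Nd3: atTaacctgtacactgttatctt
Gm28438: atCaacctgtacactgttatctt
Levels of mt-Co1, mt-Co2, mt-Atp6, mt-Co3, mt-Nd3, mt-Nd4l and mt-Nd4 are uncertain for this reason. The copied stretch also spans mt-Atp8 and the tRNA genes mt-Ts1, mt-Td, mt-Tk, mt-Tg and mt-Tr. No annotated copy was found for them there, so adding copies leaves their values as they were, and their levels are uncertain too. With the copies added to their sources, mt-Atp6 moved from rank 5 to rank 3 among the 13 protein genes by mean TPM, mt-Nd4l from 10 to 7 and mt-Nd1 from 3 to 5, while mt-Co1 and mt-Co3 kept ranks 1 and 2.

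One library stood apart before any comparison. In DNMT3ABKO 0 h replicate 1 the 37 genes took 0.747% of all TPM, against 1.77% to 2.86% in the other 11 libraries. Its protein genes were at 17.0% to 61.1% of replicate 2 of the same group (median 31.9%), whereas the median nuclear gene was at 87.6%, and its lincRNA genes took 17.1% of TPM against 10.7% to 13.3% elsewhere. Its ES cell markers (summed 4363 TPM, against 4410 in replicate 2) and fibroblast markers (3079 against 3306 TPM) were close to its partner's. Dnmt3a and Dnmt3b were lower in DNMT3ABKO at every time, with 0 h means of 9.45 against 56.2 TPM and 26.9 against 257 TPM. The 10 ES cell markers were detected in every group and summed higher after treatment. Their sum went from 4325 to 4606 TPM at 0 h to 6764 to 6872 TPM at 144 h in KH. In DNMT3ABKO it went from 4363 to 4410 TPM to 6815 to 6851 TPM. In the tests described below, 9 of the 10 were called higher and 0 lower at 144 h in KH. In DNMT3ABKO 8 were called higher and 1 lower. Among all genes 27.4% and 31.4% were called higher in these comparisons. The 20 markers of fibroblasts, the cells of the feeder layer, fell from 2804 to 3074 TPM to 585 to 675 TPM in KH. In DNMT3ABKO they fell from 3079 to 3306 TPM to 435 to 453 TPM. A summed set of 8 macrophage markers went from 246 to 264 TPM to 20.8 TPM in KH and from 209 to 235 TPM to 35.0 to 36.7 TPM in DNMT3ABKO. Fewer feeder cells and less RNA per feeder cell cannot be told apart in bulk libraries, and the part of either in the mitochondrial values was not tested.

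Tests used limma on log2(TPM + 1) over 15727 genes, those averaging 1 TPM or more, and a call required an adjusted p (Benjamini-Hochberg) under 0.05. Fold changes below are on that log2 scale, and every adjusted p is limma's. Of the 37 genes 33 passed the filter: all protein and rRNA genes and 18 tRNA genes. The remaining 4, mt-Tf, mt-Tv, mt-Tg and mt-Tl2, were too low to test. Because 1 DNMT3ABKO 0 h library was so far from its partner and all groups share 1 estimate of spread, results are given with and without DNMT3ABKO 0 h replicate 1.

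The protein genes held 89.9% to 93.0% of the TPM of the mitochondrial genome. In KH cells they summed to 16124 and 19624 TPM at 0 h, 21626 and 22295 TPM at 72 h, and 17577 and 18595 TPM at 144 h. In DNMT3ABKO cells the sums were 6721 and 19052 TPM at 0 h, 26539.6 and 23400.2 TPM at 72 h, and 21238 and 24132 TPM at 144 h. In both lines the 72 h libraries lay above both 0 h libraries, whereas at 144 h the KH libraries lay within the 0 h range and the DNMT3ABKO libraries above it.

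**Figure D1:**
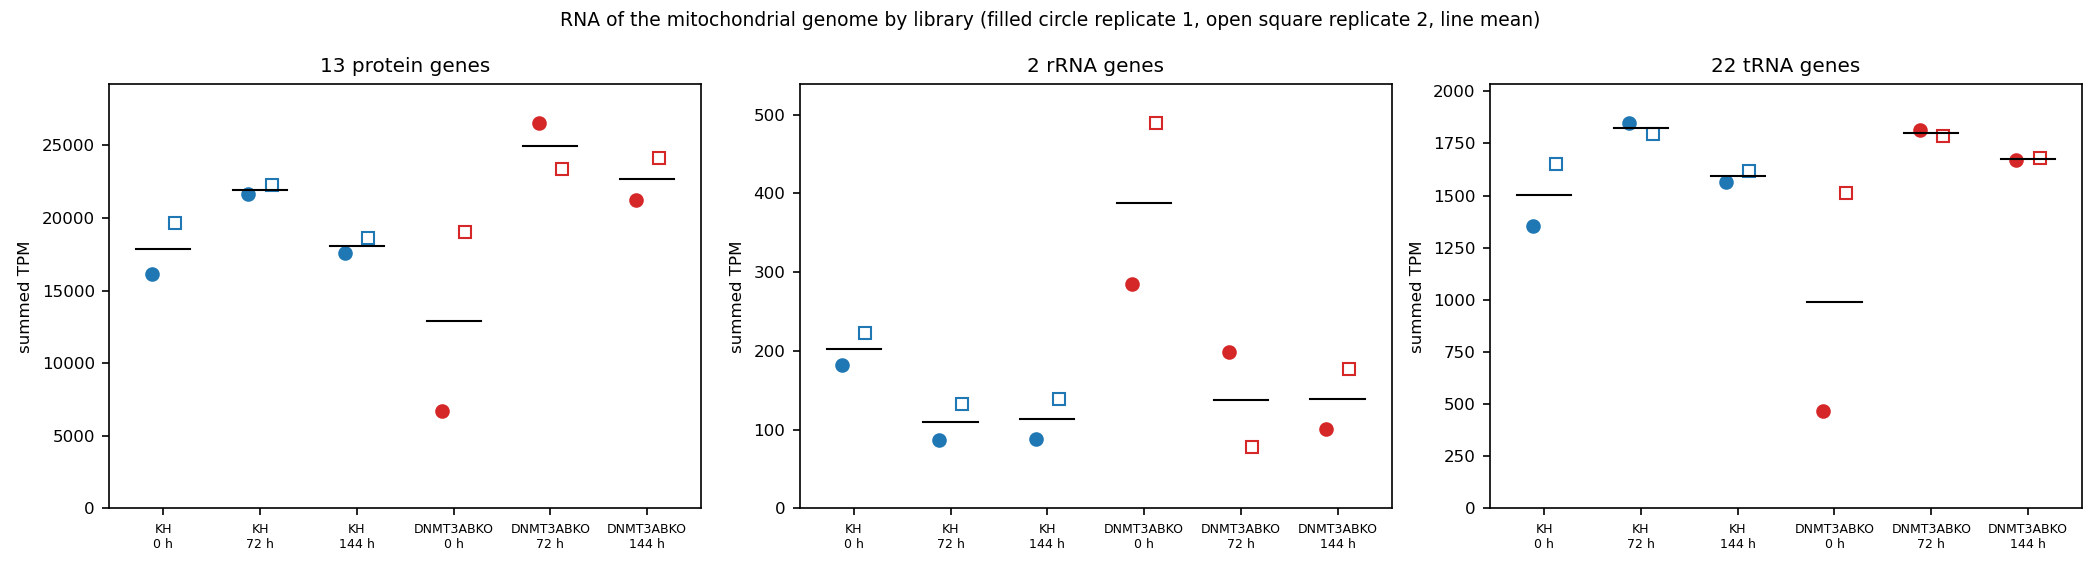
Summed TPM (y axis) of the 13 protein, 2 rRNA and 22 tRNA genes of the mitochondrial genome in each group of cells (x axis), with 1 point per library and a line at the group mean. DNMT3ABKO 0 h replicate 1 (filled circle) has 6721 TPM of protein gene RNA, against 19052 TPM in replicate 2, but its rRNA sum of 285 TPM is above every KH library.

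The 2 members with the highest mean TPM, mt-Co1 and mt-Co3, encode core subunits of complex IV, cytochrome c oxidase. mt-Co1, its copper- and haem-bearing subunit, was at 4178 and 5249.9 TPM in KH 0 h, 5753 and 5585 TPM at 72 h, and 4752 and 4935 TPM at 144 h. In DNMT3ABKO cells it was at 1904 and 4903 TPM, then 5980.4 and 6003 TPM, then 5208 and 5531 TPM. By mean TPM it ranked 11 among all genes listed. mt-Co3, the third core subunit, was at 1646 and 1915 TPM in KH 0 h, 2777 and 2945 TPM at 72 h, and 2294 and 2379.9 TPM at 144 h. In DNMT3ABKO cells mt-Co3 was at 810.4 and 1999 TPM, then 3281 and 2988 TPM, then 2909.6 and 3210.3 TPM. All 4 treated libraries of each line thus lay above both of its 0 h libraries for mt-Co3, and in DNMT3ABKO for mt-Co1. mt-Co2, which takes electrons from cytochrome c, averaged 1891 ± 163, 2145 ± 17.7 and 1810 ± 74.0 TPM (SD, n = 2) at 0, 72 and 144 h in KH, and 1432 ± 644, 2276 ± 142 and 2047 ± 184 TPM in DNMT3ABKO.

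Complex I, the NADH dehydrogenase at the entry of the chain, takes 7 of the 13 proteins. mt-Nd4l, a small membrane subunit, was at 441 and 514 TPM in KH 0 h, 652 and 686 TPM at 72 h, and 493 and 527 TPM at 144 h. In DNMT3ABKO cells mt-Nd4l was at 241 and 508 TPM, then 892 and 753 TPM, then 674 and 758 TPM, again above 0 h in every treated library. mt-Nd1, the most abundant of this complex, averaged 2241 ± 440, 2330 ± 85.5 and 1983 ± 93.0 TPM (SD, n = 2) at 0, 72 and 144 h in KH, and 1522 ± 1265, 2742 ± 259 and 2563 ± 221 TPM in DNMT3ABKO. The proton-pumping subunits mt-Nd2, mt-Nd4 and mt-Nd5 and the subunit mt-Nd3 were lower, with KH 0 h means of 518, 718, 592 and 386 TPM and DNMT3ABKO 144 h means of 721, 1046, 741 and 646 TPM. mt-Nd3 had the widest ratio of the protein genes between the DNMT3ABKO 0 h replicates, at 69.2 and 408 TPM (5.90 times).

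mt-Cytb, the only mitochondrial subunit of complex III, averaged 1659 ± 374, 1921 ± 6.0 and 1635 ± 25.6 TPM (SD, n = 2) in KH at 0, 72 and 144 h, and 1235 ± 880, 2059 ± 22.1 and 1840.4 ± 125 TPM in DNMT3ABKO. mt-Atp6, the proton-channel subunit of ATP synthase, averaged 1651 ± 46.5, 2180.0 ± 149 and 1570.0 ± 60.4 TPM in KH, and 1182 ± 912, 2629 ± 403 and 2319 ± 279.6 TPM in DNMT3ABKO. Its accessory partner mt-Atp8, read from the same mRNA, was at 990.3 and 962 TPM in KH 0 h and 726 and 966 TPM in KH 144 h. In DNMT3ABKO cells at 144 h mt-Atp8 was at 1191 and 1793 TPM, above both KH libraries of that time.

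In KH cells no protein gene was called higher at either time. At 72 h 0 of 13 were called, where 47.8% of all genes tested were called, and an unadjusted limma p under 0.05 was reached by 1 gene in each direction. mt-Co3 had a log2 fold change of 0.69 (SE 0.31, adjusted p = 0.0905) and mt-Nd6 one of -0.54 (SE 0.20, adjusted p = 0.0523). The median over the 13 genes was 0.28, against 0.08 over all genes tested. At 144 h 1 gene was called, against 51.3% of all genes, and it was mt-Nd6, which fell by 0.74 (SE 0.20, adjusted p = 0.0123). The median log2 fold change was then -0.0021, against 0.05 over all genes. Between 72 h and 144 h 0 of 13 genes were called and 0 had an unadjusted p under 0.05, where 22.9% of all genes were called. The median was -0.25, against -0.04 over all genes.

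These KH counts depended on the spread between the 2 DNMT3ABKO 0 h libraries, which are not of that line. Without DNMT3ABKO 0 h replicate 1, which sets much of the shared spread, the KH fold changes were the same but 7 protein genes were called at 72 h, where 57% of all genes were called. They were mt-Co3 at 0.69 (adjusted p = 0.000102), mt-Nd4 at 0.54, mt-Nd4l at 0.49, mt-Atp6 at 0.40, mt-Nd5 at 0.39 and mt-Co1 at 0.28 in the higher direction and mt-Nd6 at -0.54 in the lower. At 144 h the calls were mt-Co3 at 0.40 and mt-Nd6 at -0.74, where 60% of all genes were called. Leaving out DNMT3ABKO 0 h replicate 2 instead also gave 6 higher and 1 lower at 72 h. Within the KH line, mt-Nd6 lost its 144 h call without KH 0 h replicate 1 (log2 fold change -0.56, adjusted p = 0.0974) or without KH 144 h replicate 2 (-0.64, adjusted p = 0.0796).

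In DNMT3ABKO cells 10 of 13 protein genes rose at 72 h and 0 fell, where 56% of all genes tested were called and 34.3% were higher. The changes ran from 0.74 for mt-Co2 (SE 0.23, adjusted p = 0.0198) to 1.73 for mt-Atp8 (SE 0.52, adjusted p = 0.0176), with mt-Nd4l at 1.23 (SE 0.26, adjusted p = 0.00292) and mt-Co3 at 1.30 (SE 0.31, adjusted p = 0.00504). mt-Nd1 (1.15, adjusted p = 0.0534), mt-Cytb (0.95, adjusted p = 0.0562) and mt-Nd6 (-0.10, adjusted p = 0.688) were not called. At 144 h 7 rose and 1 fell, where 57.6% of all genes were called: mt-Nd3 at 1.93, mt-Atp8 at 1.54, mt-Nd2 at 1.44, mt-Nd4 at 1.33, mt-Co3 at 1.26, mt-Atp6 at 1.22 and mt-Nd4l at 1.03 rose, and mt-Nd6 fell by 0.52 (SE 0.20, adjusted p = 0.0492). The medians over the 13 genes were 1.24 and 1.05, against 0.12 and 0.05 over all genes.

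The size of these changes rested on DNMT3ABKO 0 h replicate 1. Without it the medians were 0.44 at 72 h and 0.34 at 144 h, and the calls were 6 higher and 1 lower at 72 h (53.4% of all genes called) and 3 higher and 1 lower at 144 h (56.1%). At 72 h these were mt-Nd4l at 0.69, mt-Co3 at 0.65, mt-Nd4 at 0.56, mt-Atp6 at 0.52, mt-Nd5 at 0.42 and mt-Co2 at 0.27, with mt-Nd6 at -0.46 (adjusted p = 0.0325). At 144 h they were mt-Nd3 at 0.65, mt-Co3 at 0.61 and mt-Nd4l at 0.49, with mt-Nd6 at -0.88 (adjusted p = 0.000980). Without DNMT3ABKO 0 h replicate 2 the medians were 2.07 and 1.91. Counts also moved without DNMT3ABKO 72 h replicate 1 (2 genes at 72 h), 72 h replicate 2 (4 at 72 h), 144 h replicate 1 (3 at 144 h) and 144 h replicate 2 (2 at 144 h). The calls of mt-Co3 and mt-Nd4l at both times were the ones that held without each of the 12 libraries in turn, and the mt-Nd6 call at 144 h was lost in 9 of those 12 fits, holding without either KH 0 h library or without DNMT3ABKO 0 h replicate 1.

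**Figure D2:**
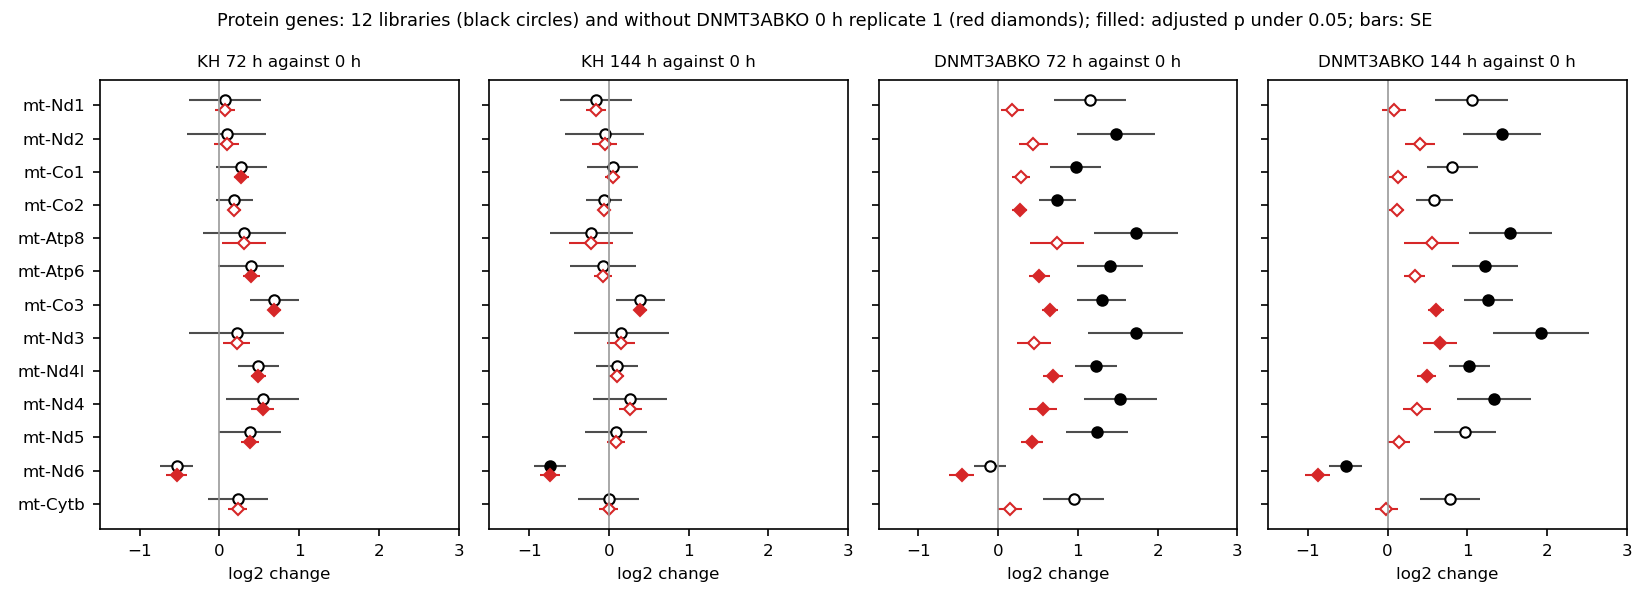
Log2 fold change of each of the 13 protein genes (y axis, in genome order) after 72 h or 144 h, relative to 0 h of the same line, with the SE as bars, from limma on all 12 libraries and without DNMT3ABKO 0 h replicate 1. In the DNMT3ABKO panels the median is 1.24 with that library and 0.44 without it for 72 h, and 1.05 and 0.34 for 144 h, and mt-Nd6 lies below 0 in them.

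Between the lines no protein gene was called at any time. At 0 h 0 of 13 were called (1 lower at an unadjusted p under 0.05), where 9.06% of all genes were called, with a median log2 difference of -0.64. That median became 0.11 without DNMT3ABKO 0 h replicate 1 and -1.46 without DNMT3ABKO 0 h replicate 2. At 72 h 0 of 13 were called and 0 at an unadjusted p under 0.05, where 19.3% of all genes were called, with a median of 0.22. At 144 h 0 of 13 were called and 0 at an unadjusted p under 0.05, where 26.5% of all genes were called. The median was 0.37, with the estimates of 12 genes higher in DNMT3ABKO and that of mt-Nd6 lower. The 144 h comparison without DNMT3ABKO 0 h replicate 1 called 7 higher and 1 lower, where 36.9% of all genes were called. mt-Atp8 (0.80), mt-Nd3 (0.60), mt-Atp6 (0.56), mt-Nd2 (0.54), mt-Nd4l (0.49), mt-Co3 (0.39) and mt-Nd1 (0.37) were then higher in DNMT3ABKO and mt-Nd6 (-0.38) lower.

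A test of the difference between the lines in their response called 0 of 13 protein genes at 72 h and 0 of 13 at 144 h, where 5.23% and 8.59% of all genes were called. An unadjusted limma p under 0.05 was reached by 0 genes at 72 h and by 2 at 144 h. The median differences of 0.86 and 0.93 became 0.08 and 0.22 without DNMT3ABKO 0 h replicate 1. Between 72 h and 144 h in DNMT3ABKO cells 0 of 13 were called, 0 of them at an unadjusted p under 0.05, where 27.3% of all genes were called.

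Shares within the mitochondrial genome set aside how much of a library it took. mt-Nd6, a membrane subunit of complex I and the minus-strand protein gene shown above, was at 305 and 237 TPM in KH 0 h, 182 and 188 TPM at 72 h, and 173 and 149.5 TPM at 144 h. In DNMT3ABKO cells mt-Nd6 was at 139 and 228 TPM, then 178 and 154 TPM, then 114 and 134 TPM. Relative to 100 TPM of the 12 plus-strand protein genes this was 1.93 and 1.22 in KH 0 h, then 0.848 and 0.850, then 0.992 and 0.811, and in DNMT3ABKO 2.12 and 1.21, then 0.677 and 0.663, then 0.539 and 0.559. All 4 treated libraries of each line lay below both 0 h libraries, the DNMT3ABKO 0 h replicate 1 library included, and the treated DNMT3ABKO libraries lay below the treated KH ones. With the chromosome 1 copies counted as mitochondrial the same order held, from 1.35 and 0.879 at KH 0 h to 0.373 and 0.387 at DNMT3ABKO 144 h.

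mt-Co3 went the other way as a percent of the summed protein genes, from 10.2% and 9.76% at KH 0 h to 12.8% and 13.2% at 72 h and 13.1% and 12.8% at 144 h. In DNMT3ABKO cells its share was 12.1% and 10.5%, then 12.4% and 12.8%, then 13.7% and 13.3%. mt-Nd4 was the other gene whose share was above both 0 h libraries in all 4 treated libraries of both lines, from 3.61% and 4.35% to 4.75% and 4.63% at 144 h in KH and from 3.13% and 4.25% to 4.64% and 4.59% in DNMT3ABKO. The share of mt-Co2 was below both 0 h libraries in all treated libraries of both lines. mt-Co1 had 22.5% to 28.3% of the sum over all libraries. Its treated and 0 h shares overlapped in KH. In DNMT3ABKO the mt-Co1 share was 28.3% and 25.73% at 0 h, above all 4 treated libraries (22.5% to 25.66%). These shares sum to a fixed total, so a higher share of one gene lowers the others.

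**Figure D3:**
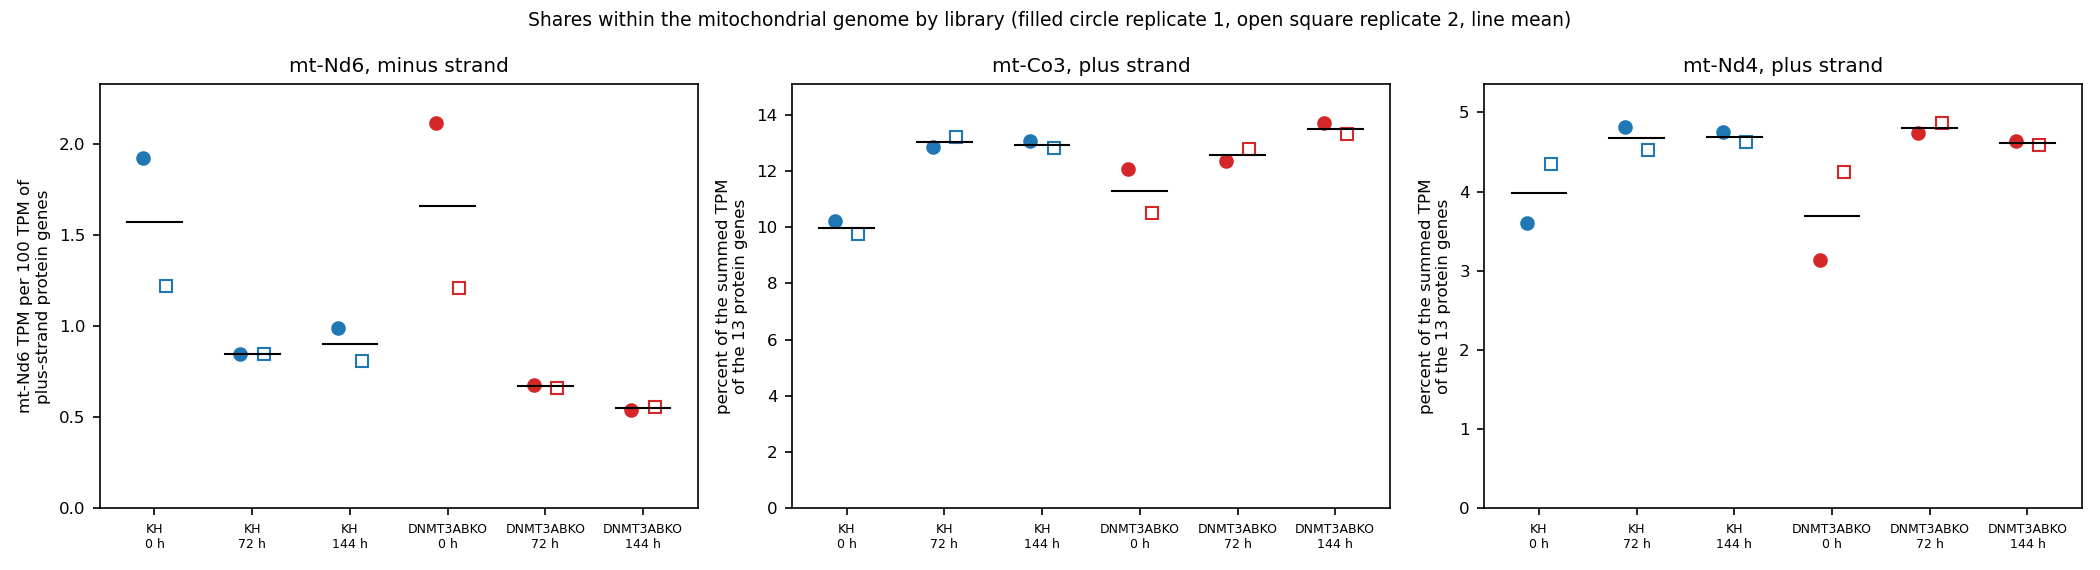
Left, mt-Nd6 TPM per 100 TPM of the 12 plus-strand protein genes; middle and right, mt-Co3 and mt-Nd4 as a percent of the summed TPM of the 13 protein genes (y axes), in each group (x axis) with 1 point per library and a line at the mean. mt-Nd6 lies between 1.21 and 2.12 at 0 h and between 0.539 and 0.992 in the treated libraries.

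The proteins of the mitochondrial genome work only in complexes with nuclear subunits, of which 73 were listed for complexes I, III, IV and V. Most of the called ones fell: 37 lower and 1 higher in KH at 72 h, 40 lower and 1 higher at 144 h, and in DNMT3ABKO 38 lower and 3 higher, then 42 lower and 6 higher, with medians of -0.25, -0.32, -0.20 and -0.27. Of all genes tested 19.5%, 23.9%, 21.6% and 26.2% were called lower in the same comparisons. Among the largest falls were Uqcrq, a subunit of complex III, at -1.27 in KH and -0.75 in DNMT3ABKO at 144 h, Ndufa2 of complex I at -0.72 and -1.11, and Atp5g1, a gene for the rotor ring of ATP synthase, at -1.10 in KH. Fitted on the DNMT3ABKO 0 h and treated groups alone, the lower counts in that line were 23 and 28. Leaving out 1 library gave 22 to 45 lower in KH at 72 h, with 22 without KH 72 h replicate 2, 36 to 49 in KH at 144 h, 29 to 46 in DNMT3ABKO at 72 h and 30 to 49 at 144 h. In that line 15 and 16 were higher without DNMT3ABKO 0 h replicate 2, against 2 at 144 h without 144 h replicate 2 and 1 at 72 h without 72 h replicate 1. Of the 4 genes of complex II, which has no mitochondrial subunit, 1 was lower at 144 h in KH and 3 in DNMT3ABKO, with Sdhd at -0.49 in each.

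Per TPM of the 73 nuclear partners, the mitochondrial protein genes summed to 1.28 and 1.48 TPM in KH 0 h, 1.95 and 2.01 TPM at 72 h, and 1.64 and 1.72 TPM at 144 h. In DNMT3ABKO cells the ratio was 0.572 and 1.47, then 2.45 and 2.17, then 1.91 and 2.21. The treated libraries of each line all lay above its 0 h libraries. Complex IV had the highest ratio, at 2.55 ± 0.22, 3.78 ± 0.042 and 3.45 ± 0.052 (SD, n = 2) in KH at 0, 72 and 144 h and 2.03 ± 0.98, 4.27 ± 0.17 and 3.99 ± 0.25 in DNMT3ABKO. Complex V had the lowest. The KH 144 h libraries overlapped those of 0 h for complex I (1.85 and 1.95 against 1.53 and 1.95) and for complex V (0.516 and 0.590 against 0.523 and 0.497), and did not for complexes III and IV. A lower nuclear sum and a higher mitochondrial sum both raise such a ratio.

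**Figure D4:**
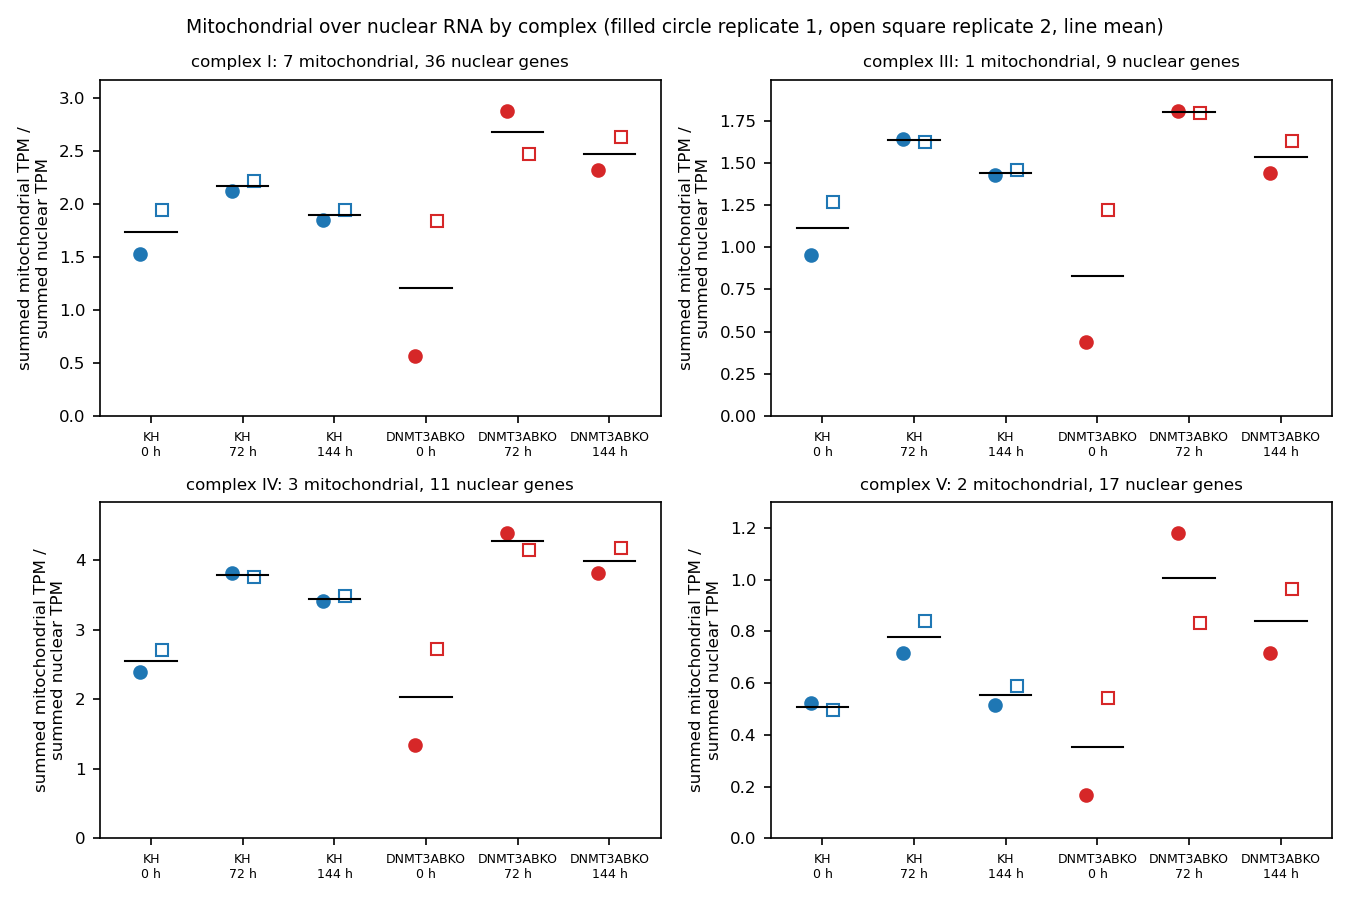
Summed TPM of mitochondrial subunits divided by summed TPM of nuclear subunits (y axes, each from 0) for complexes I, III, IV and V in each group (x axis), with 1 point per library and a line at the mean. Complex IV runs from 1.34 in DNMT3ABKO 0 h replicate 1 to 4.39 in DNMT3ABKO 72 h replicate 1.

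The 2 rRNA genes, mt-Rnr1 for the small and mt-Rnr2 for the large subunit of the mitochondrial ribosome, are measured here as what was left after ribosomal RNA had been depleted, so their values also carry the efficiency of that step in each library. mt-Rnr1 was at 79.4 and 127 TPM in KH 0 h, 46.1 and 65.3 TPM at 72 h, and 49.4 and 80.2 TPM at 144 h. In DNMT3ABKO cells it was at 153 and 288 TPM, then 99.7 and 40.3 TPM, then 53.0 and 95.6 TPM. mt-Rnr2 was at 103 and 95.5 TPM in KH 0 h, then 40.8 and 66.9 TPM, then 38.9 and 59.1 TPM, and in DNMT3ABKO at 132 and 201 TPM, then 99.0 and 37.3 TPM, then 48.0 and 80.9 TPM. Treated libraries lay below 0 h libraries in both lines, except that KH 144 h overlapped KH 0 h for mt-Rnr1.

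In DNMT3ABKO cells both rRNA genes fell, where 21.6% and 26.2% of all genes were called lower. At 72 h the log2 fold changes were -1.71 (SE 0.47, adjusted p = 0.0114) for mt-Rnr1 and -1.41 (SE 0.44, adjusted p = 0.0196) for mt-Rnr2, and at 144 h they were -1.55 (adjusted p = 0.0175) and -1.37 (adjusted p = 0.0209). Without DNMT3ABKO 0 h replicate 1 both stayed called, at -2.17 and -1.71 for 72 h. The 72 h calls of both were lost without DNMT3ABKO 0 h replicate 2 (-1.26 and -1.11, adjusted p = 0.0642 and 0.0886) or 72 h replicate 2 (-1.07 and -0.71, adjusted p = 0.104 and 0.171), and the 144 h calls without 0 h replicate 2 (-1.09 and -1.07, adjusted p = 0.0989 and 0.0959) or 144 h replicate 1 (-1.13 and -1.002, adjusted p = 0.127 and 0.142). With no filter on low values 0 of 2 were called at either time, and a fit of only the groups compared called 1 at 72 h. In KH cells 0 of 2 were called at either time, where 47.8% and 51.3% of all genes were called, at -0.86 and -0.91 for 72 h and -0.67 and -1.03 for 144 h, with 1 at an unadjusted limma p under 0.05 (144 h). mt-Rnr2 was called in KH at both times without DNMT3ABKO 72 h replicate 1 (adjusted p = 0.0451 and 0.0253) or replicate 2 (0.0451 and 0.0253), and a fit of only the groups compared called 2 of 2 lower at 72 h and 1 at 144 h. The test of the difference between the lines called 0 of 2 at both times and 0 at an unadjusted p under 0.05.

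The tRNA genes summed to 1353 and 1652 TPM in KH 0 h, 1848 and 1797 TPM at 72 h, and 1567 and 1618 TPM at 144 h. In DNMT3ABKO cells the sums were 468 and 1510.1 TPM, then 1813 and 1786 TPM, then 1672 and 1682 TPM. Most of this was mt-Ts1, a serine tRNA gene, with a mean of 1101 TPM over the 12 libraries, followed by mt-Tl1 (leucine, 207 TPM), mt-Ty (tyrosine, 44.8 TPM) and mt-Tw (tryptophan, 35.9 TPM). The other extreme was mt-Tv (valine, 0.337 TPM) and mt-Tf (phenylalanine, 0.142 TPM), which were listed at 0 in 5 and 6 libraries. Mature tRNAs are too short and too modified for most such libraries to hold them well, and reads of uncut precursors and of neighbouring mRNAs overlap these genes.

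mt-Ts1 lies opposite the stretch that follows mt-Co1, a stretch known to be kept in the mt-Co1 mRNA, so its value cannot be told apart from reads of that mRNA. It was at 795 and 1075 TPM in KH 0 h, 1385 and 1346 TPM at 72 h, and 1108 and 1182 TPM at 144 h. In DNMT3ABKO cells it was at 249.6 and 992 TPM, then 1356 and 1374 TPM, then 1196 and 1159 TPM. Per 100 TPM of mt-Co1, untreated KH libraries held 19.0 and 20.5 TPM of mt-Ts1. Untreated DNMT3ABKO replicates 1 and 2 held 13.1 and 20.2 TPM. Treated libraries ranged from 23.3 to 24.1 TPM in KH and from 20.9 to 23.0 TPM in DNMT3ABKO. Every treated library thus had a higher ratio than any untreated one, by little for DNMT3ABKO 144 h replicate 2 (20.9). The cause of this difference was not tested.

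Of the 18 tRNA genes tested, KH cells had 1 lower at 72 h, where 19.5% of all genes were called lower, and 3 lower and 1 higher at 144 h, where 23.9% were called lower and 27.4% higher. These shares of the tRNA genes are below those of all genes. mt-Te, for glutamate, was at 12.9 and 10.3 TPM at 0 h and at 5.02 and 5.20 TPM at 72 h, and fell by 1.04 (SE 0.31, adjusted p = 0.0188). At 144 h it was back at 10.6 and 11.1 TPM, a rise from 72 h of 0.95 (adjusted p = 0.0492). mt-Tq (glutamine) was at 34.5 and 33.6 TPM at 0 h and 17.6 and 20.8 TPM at 144 h (log2 fold change -0.80, adjusted p = 0.0365), mt-Tc (cysteine) at 7.04 and 5.44 against 2.49 and 4.18 TPM (-0.76, adjusted p = 0.0144), and mt-Ty at 62.2 and 54.0 against 28.1 and 41.2 TPM (-0.75, adjusted p = 0.0315). mt-Td, for aspartate, rose from 2.61 and 3.54 TPM to 5.80 and 6.66 TPM (0.83, adjusted p = 0.0408). Of these called genes, mt-Te, mt-Tq, mt-Tc and mt-Ty are minus-strand genes and mt-Td is a plus-strand gene. The 18 genes together did not divide by strand in that way. At 144 h the lowest change was that of plus-strand mt-Ti (-0.88, not called). Above 0 were 2 genes, mt-Td and minus-strand mt-Ts1 (0.31, not called).

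A fit of only the groups compared called 1 higher and 9 lower at 72 h, median-ratio scaling 5 lower at 72 h, and no filter on low values 0 at 144 h. Each of these tRNA calls was also lost when some single libraries were left out. The mt-Te call at 72 h was lost without KH 0 h replicate 1 (adjusted p = 0.108), KH 72 h replicate 1 (0.0778) or KH 72 h replicate 2 (0.0695), and the call of its rise from 72 h to 144 h held in 2 of the 12 fits, those without a DNMT3ABKO 0 h library. The mt-Tc call was lost without KH 0 h replicate 1 (-0.60, adjusted p = 0.102) or KH 144 h replicate 1 (-0.47, adjusted p = 0.128), and the latter also took the mt-Ty call (-0.48, adjusted p = 0.220), as did either KH 0 h library (adjusted p = 0.143 and 0.0641). The mt-Tq and mt-Td calls were lost without any one of the 4 KH libraries at 0 h and 144 h, and that of mt-Td also without either DNMT3ABKO 72 h library. The KH counts without DNMT3ABKO 0 h replicate 1 were 1 higher and 7 lower at 72 h and 2 higher and 6 lower at 144 h.

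In DNMT3ABKO cells the called tRNA genes were higher. At 72 h they were mt-Ts1 (1.45, adjusted p = 0.0221) and mt-Tr, for arginine (1.11, adjusted p = 0.0159), and at 144 h mt-Ts1 (1.24, adjusted p = 0.0414), mt-Tr (1.05, adjusted p = 0.0202) and mt-Ty (0.75, adjusted p = 0.0284), where 34.3% and 31.4% of all genes were called higher, shares above those of the tRNA genes. With no filter on low values the counts were 0 at 72 h and 0 higher and 1 lower at 144 h, and a fit of only the groups compared called 1 higher at 72 h and 0 at 144 h. mt-Tr was close to the detection limit at 0.00924 and 0.483 TPM at 0 h, against 2.41 and 1.06 TPM at 72 h and 0.819 and 2.51 TPM at 144 h. Without DNMT3ABKO 0 h replicate 1 the counts became 0 at 144 h and, at 72 h, 1 higher with 4 lower, and mt-Ts1, at 0.46 (adjusted p = 0.0175), was the gene still called higher at 72 h. With replicate 2 of that group left out instead, the median change of the 18 tRNA genes went from 0.29 to 0.89 at 72 h. At 144 h it went from 0.53 to 1.14. The mt-Ts1 call was lost at 72 h without either DNMT3ABKO 72 h library (adjusted p = 0.0768 and 0.0792), and at 144 h in 11 of the 12 fits that left out 1 library (adjusted p up to 0.151), the exception being the fit without DNMT3ABKO 0 h replicate 2. The mt-Tr call was lost without DNMT3ABKO 0 h replicate 1 (adjusted p = 0.0913 at 72 h and 0.114 at 144 h), without 72 h replicate 1 (0.131) at 72 h and without 144 h replicate 2 (0.182) at 144 h. That of mt-Ty was lost without 0 h replicate 1 (0.31, adjusted p = 0.208) or either 144 h library (adjusted p = 0.0708 and 0.117). Between the lines 0 of 18 tRNA genes were called at 0, 72 or 144 h, where 9.06%, 19.3% and 26.5% of all genes were called, with 7, 1 and 1 at an unadjusted limma p under 0.05. At 0 h their median of -0.73 became -1.28 without DNMT3ABKO 0 h replicate 2 and -0.16 without replicate 1. A fit of only the groups compared called 2 higher and 3 lower at 72 h.

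mt-Ty was the member for which the test of the difference between lines in the 144 h response made a call, at 1.499 (SE 0.36, adjusted p = 0.0302), so 1 of 33 members was called where 8.59% of all genes were. Over the 18 tRNA genes tested, the median of this difference was 0.86. It became 0.29 without DNMT3ABKO 0 h replicate 1 and 1.40 without replicate 2 of that group. In DNMT3ABKO cells mt-Ty was at 23.6 and 44.0 TPM at 0 h, 55.9 and 44.5 TPM at 72 h, and 52.7 and 57.1 TPM at 144 h. In KH cells it went from 62.2 and 54.0 TPM to 36.3 and 38.4 TPM and then 28.1 and 41.2 TPM. Both KH 144 h libraries lay below both KH 0 h libraries, and both DNMT3ABKO 144 h libraries above both DNMT3ABKO 0 h libraries.

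**Figure D5:**
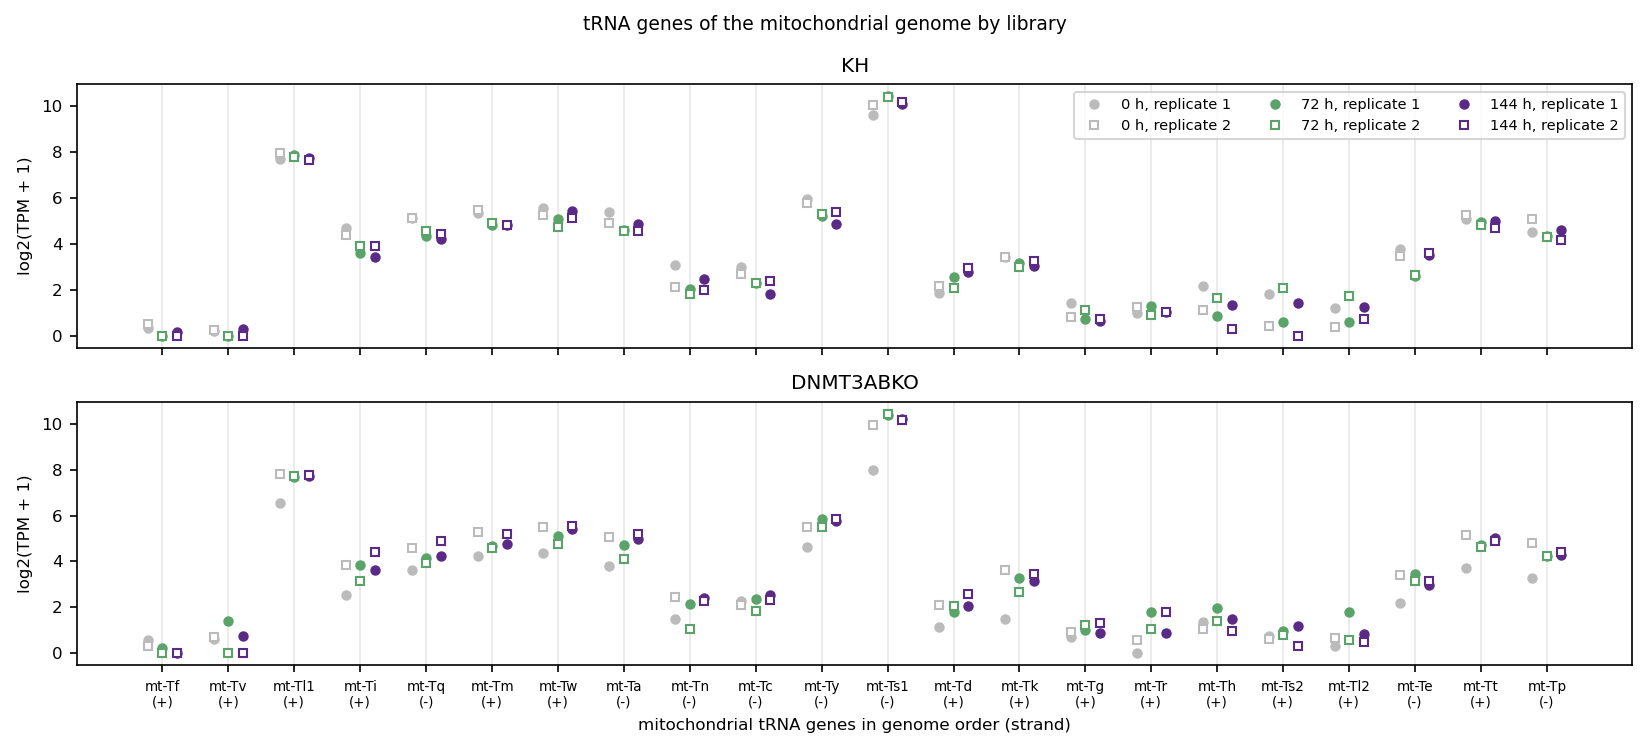
Values as log2(TPM + 1) (y axis) of each of the 22 tRNA genes in genome order (x axis). KH is in the upper and DNMT3ABKO in the lower panel, with 1 point per library, shaded by time. mt-Ts1 (mean 1101 TPM) and mt-Tl1 (207 TPM) stand above the other 20 genes, whose means run from 0.142 to 44.8 TPM.

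Nuclear genes that copy, transcribe, process, modify and translate the mitochondrial genome were taken from 7 lists with 112 genes, of which 111 were tested. In KH cells 40 rose and 11 fell at 72 h, and 19 rose and 24 fell at 144 h. In DNMT3ABKO cells 50 rose and 15 fell at 72 h, and 24 rose and 27 fell at 144 h. Of all genes tested 28.3%, 27.4%, 34.3% and 31.4% were called higher and 19.5%, 23.9%, 21.6% and 26.2% lower in these comparisons. The numbers that fell at 144 h were near those shares, and the numbers that rose at 144 h were below them. With scaling by median ratios instead of TPM, which moved the median of all genes by -0.12 in DNMT3ABKO at 72 h and by less than 0.1 elsewhere, the counts were 27 higher with 22 lower in KH at 72 h, 18 with 36 at 144 h, 37 and 22 in DNMT3ABKO at 72 h, and 26 and 33 at 144 h. The counts also depended on single libraries, with 20 higher in KH at 72 h without KH 0 h replicate 1 and 21 and 25 without the KH 72 h replicates 1 and 2, 8 and 9 higher at 144 h without KH 0 h replicate 1 and KH 144 h replicate 2, 14 lower at 144 h without KH 0 h replicate 2 or KH 144 h replicate 2, 9 lower in DNMT3ABKO at 72 h without 72 h replicate 1, and in DNMT3ABKO at 144 h 42 higher without DNMT3ABKO 0 h replicate 2 and 14 higher without 144 h replicate 2.

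Among the genes that transcribe it, Polrmt rose by 0.27 in KH at 72 h (adjusted p = 0.0151), Tfam, which packages and bends the DNA at the promoters, fell by 0.21 in DNMT3ABKO at 72 h (adjusted p = 0.0352), and Tfb2m was not called (0.19 and 0.06 in KH, 0.20 and 0.13 in DNMT3ABKO). The Polrmt call was lost without KH 0 h replicate 1 or either KH 72 h library (adjusted p up to 0.0877), and that of Tfam in 7 of the 12 fits that left out 1 library (adjusted p up to 0.244). Mrpl12, a ribosomal protein that also binds Polrmt, fell at 144 h by 0.68 in KH and by 0.84 in DNMT3ABKO. Over the transcription list of 10 genes 5 rose and 1 fell at 72 h in KH, and 5 rose and 2 fell in DNMT3ABKO. At 144 h the counts were 0 higher and 2 lower in KH and 3 higher and 2 lower in DNMT3ABKO. Over all genes tested, 28.3% and 34.3% were higher at 72 h in KH and DNMT3ABKO, and 27.4% and 31.4% at 144 h. The shares called lower were 19.5% and 21.6% at 72 h, and 23.9% and 26.2% at 144 h. The list was not tested as a set against these shares.

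Of the factors that hold and process the transcripts, Lrpprc, which binds and stabilises mitochondrial mRNAs, rose in both lines. It was at 79.9 and 83.7 TPM in KH 0 h, 103 and 102 TPM at 72 h, and 109.7 and 108 TPM at 144 h, and in DNMT3ABKO at 75.7 and 80.0 TPM, then 124 and 116 TPM, then 131 and 136 TPM. Its log2 fold changes were 0.32 and 0.41 in KH and 0.62 and 0.77 in DNMT3ABKO. Its binding partner Slirp was lower in KH at 144 h, at -0.84 (adjusted p = 0.0220), and was not called in DNMT3ABKO (-0.29 and -0.20). The Slirp call was lost without KH 0 h replicate 2 or KH 144 h replicate 2 (adjusted p up to 0.175). Rexo2, an exonuclease that clears short RNA fragments, fell at 144 h by 0.93 in KH and by 1.03 in DNMT3ABKO, and Fastkd5, needed for cleavage at sites without a tRNA, rose by 0.89 in DNMT3ABKO. The list of 24 processing and stability genes in KH had 5 higher and 2 lower for 72 h, then 2 higher and 6 lower for 144 h. In DNMT3ABKO it had 10 higher and 4 lower, then 5 higher and 8 lower. Among all genes 28.3%, 27.4%, 34.3% and 31.4% were called higher in these 4 comparisons. The shares called lower were 19.5%, 23.9%, 21.6% and 26.2%, and the list was not tested as a set.

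The remaining lists are given beside the shares of all genes tested. At 72 h 28.3% of these were higher and 19.5% lower in KH, and 34.3% and 21.6% in DNMT3ABKO. At 144 h the shares were 27.4% and 23.9% in KH, and 31.4% and 26.2% in DNMT3ABKO. No list was tested as a set against them. Of 14 genes that maintain mitochondrial DNA, 7 rose and 2 fell at 72 h in each line. At 144 h 5 rose and 2 fell in KH, and 2 rose and 2 fell in DNMT3ABKO. Of 19 genes that modify rRNA and tRNA, 10 rose and 2 fell at 72 h in each line, against 3 and 3 in KH and 5 and 5 in DNMT3ABKO at 144 h. Of 22 aminoacyl-tRNA synthetases, which load tRNAs with amino acids, 10 rose and 3 fell at 72 h in each line, against 3 and 5 in KH and 4 and 4 in DNMT3ABKO at 144 h, and the lowest of them was the leucine enzyme Lars2 at -2.16 in DNMT3ABKO. Of 13 translation factors, 1 rose and 1 fell at 72 h in KH and 3 rose and 2 fell in DNMT3ABKO, and 6 fell and 1 rose at 144 h in each line, among them Tufm, the elongation factor that brings tRNAs to the ribosome, at -0.51 in KH. Of 9 nuclear regulators tested, 2 rose in KH and 5 in DNMT3ABKO at 72 h and 5 and 4 at 144 h, with 0 lower, including Myc, a growth-promoting transcription factor, at 0.66 and 1.14. The coactivators Pprc1 and Ppargc1b rose in DNMT3ABKO at 72 h (0.15 and 0.50) and were not called in the other 3 comparisons with 0 h, and the Pprc1 call was lost in 9 of the 12 fits that left out 1 library (adjusted p up to 0.195).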

How the data were processed

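RNA sequencing of 12 libraries was analysed from 1 deposited table per library. Per the study's methods and the submitters' notes, the authors added spike-in RNA, depleted rRNA, trimmed reads with cutadapt 2.4, aligned them to mm10 with STAR 2.7.3a and quantified GENCODE genes with StringTie 2.0. These versions are those of the submitters' notes, and the study's methods name other versions of STAR and StringTie. Each deposited table gives TPM by gene for 1 library. Depth cannot be had from TPM, so it is unknown and counting intervals are not given. Spike-in values were not used here, so values are shares of a library's RNA, and how reads that fit several places were assigned decides the split between mitochondrial genes and their nuclear copies.

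Values were analysed as log2(TPM + 1), which understates changes of low genes. Genes averaging 1 TPM or more were fitted with limma 3.58.1 (R 4.3.3; lmFit, eBayes with trend), with 1 term per group, no covariate and 11 contrasts, and p-values were adjusted over all 15727 genes. limma replaced the count-based test of the study because TPM values are not counts. The fit was checked on simulated data. Sums, shares and figures were made with Python 3.11.15, pandas 2.3.3, NumPy 2.4.6 and matplotlib 3.10.9. Nuclear copies were found with BLAST+ 2.17.0 (at least 100 bases at 90% identity). All per-sample columns were used.

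The members, the lists and the tests were chosen with earlier results of these data known. All protein and rRNA genes were named, and of the tRNA genes the 4 highest and 2 lowest by mean and those called with groups that did not overlap. Of the nuclear lists, 7 genes were named always, and otherwise at most the 2 highest and 2 lowest called at 144 h. Alternatives were no filter, a pseudocount of 0.1 TPM, scaling by median ratios or by nuclear protein-coding genes, a fit of only the groups compared, a replicate block, a log2 fold minimum of 1 and leaving out each library. Adding the chromosome 1 copies to their sources was chosen after seeing the data.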

Additional observations from a re-analysis of the deposited data

Results flagged for a closer look

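The change of mt-Ty, a minus-strand tRNA gene, at 144 h differed between the lines by 1.499 on the log2 scale (SE 0.36, limma adjusted p = 0.0302; 8.59% of all genes were called in this test), being lower in KH and higher in DNMT3ABKO, with 2 of 2 libraries in each line showing the direction. The estimate ran from 1.06 without DNMT3ABKO 0 h replicate 1 (adjusted p = 0.0264) to 1.94 without DNMT3ABKO 0 h replicate 2 (adjusted p = 0.000884). The call was lost in 7 of the 12 fits that left out 1 library: without any one of the 4 KH libraries at 0 h and 72 h (adjusted p = 0.0518 to 0.10), without KH 144 h replicate 1 (0.114) and without either DNMT3ABKO 144 h library (0.0773 and 0.101). It was also lost with no filter on low values (adjusted p = 0.0850) and in a fit of only the 4 groups compared (adjusted p = 0.0778).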

How the results depend on the processing

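Among the 13 protein genes, the number called moved by over 1.5 times as follows. In KH at 72 h (0 called) it was 1 with median-ratio scaling, 1 with scaling to nuclear protein-coding genes, 4 in a fit of only the groups compared and 1 with a replicate block, and 0 to 7 without 1 library. In KH at 144 h (1 called) it was 0 with a log2 fold minimum of 1, 0 with no filter, 2 with only the groups compared and 0 to 2 without 1 library. In DNMT3ABKO it was 2 at 72 h (10 called) and 2 at 144 h (8 called) both with no filter and with only the groups compared, and 2 to 12 at each time without 1 library. With only the groups compared it was 9 in KH and 3 in DNMT3ABKO for 144 h against 72 h, and 4 and 10 between the lines at 72 h and 144 h (0 called in each), where leaving out 1 library gave 0 to 4, 0 to 1, 0 to 1 and 0 to 8. Leaving out 1 library gave 0 to 13 between the lines at 0 h and 0 to 13 and 0 to 12 for the differences in response. The cause was not tested.

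Of the rRNA genes, a fit of only the groups compared called 2 and 1 in KH at 72 h and 144 h (0 called) and 1 in DNMT3ABKO at 72 h (2 called), no filter called 0 in DNMT3ABKO at each time (2 called), and leaving out 1 library gave 0 to 1 in KH and 0 to 2 in DNMT3ABKO. Of the tRNA genes in KH at 72 h (1 called), 5 were called with median-ratio scaling, 10 with only the groups compared, 2 with a replicate block and 0 to 8 without 1 library. At 144 h (4 called) it was 0 with a log2 fold minimum of 1 and 0 with no filter, and 0 to 8 without 1 library. For 144 h against 72 h (1 called) it was 0 with that minimum, no filter, a pseudocount of 0.1 TPM or a replicate block, 2 with only the groups compared and 0 to 1 without 1 library. In DNMT3ABKO no filter and only the groups compared gave 0 and 1 at 72 h (2 called) and 1 and 0 at 144 h (3 called), and leaving out 1 library 0 to 12 and 0 to 14. For 144 h against 72 h (0 called) only the groups compared gave 4, and leaving out 1 library 0 to 4. Between the lines (0 called) median-ratio scaling gave 1 at 0 h and 1 at 144 h, nuclear scaling 1 and a replicate block 1 at 0 h, only the groups compared 5 at 72 h and 2 at 144 h, and leaving out 1 library 0 to 14, 0 to 1 and 0 to 2. For the differences in response, leaving out 1 library gave 0 to 12 at each time, and no filter or only the groups compared 0 at 144 h (1 called).

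Of the 7 expression lists, a log2 fold minimum of 1 left 2 and 0 in KH and 2 and 3 in DNMT3ABKO, and only the groups compared gave 35 and 27 in DNMT3ABKO at 72 h and 144 h (65 and 51 called). Leaving out 1 library gave 31 to 67 and 23 to 63 in KH and 44 to 72 and 35 to 65 in DNMT3ABKO.

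Summed TPM of the protein genes was 27092, 33470.4 and 27184 in KH at 0, 72 and 144 h and 38392 and 34305 in DNMT3ABKO at 72 and 144 h when scaled to nuclear protein-coding genes, 25014, 31547, 25774, 35871 and 32738 with the chromosome 1 copies added, and 20676 in KH at 72 h with median-ratio scaling. Both scalings use another total, and the copies add reads.

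Changes that reversed were all in DNMT3ABKO at 72 h and ranged between the fits without 0 h replicate 1 and without 0 h replicate 2 of that line: mt-Tm from -0.66 to 0.38 (adjusted p = 0.0493 for the latter), mt-Tw from -0.58 to 0.55 (adjusted p = 0.0346 for the latter), mt-Tk from -0.63 (adjusted p = 0.0366) to 1.504 and mt-Tt from -0.45 (adjusted p = 0.0212) to 0.98. The study states that time points of a biological replicate were handled together, but the labels do not tie the replicate numbers to that. The numbers were not taken as pairs, since deviations of same-numbered libraries correlated at -0.10 to 0.10 within a line, although at 0.34 between the lines at 0 h and 0.13 between KH 0 h and DNMT3ABKO 144 h. The replicate block called 12 protein genes in DNMT3ABKO at 72 h, adding mt-Nd1 and mt-Cytb, and 10 higher and 1 lower at 144 h. It ended 1 call among the members, the mt-Te rise from 72 h to 144 h in KH (adjusted p = 0.0543). TPM gives no depth, so what depth limits is unknown.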

Other observations

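Of the neighbouring tRNA genes, the IQM cluster (mt-Ti, mt-Tq and mt-Tm) summed to 99.4 and 97.6 TPM in KH 0 h and 55.1 and 62.1 TPM in KH 144 h, and to 33.9 and 74.3 TPM and then 55.3 and 84.3 TPM in DNMT3ABKO. The neighbouring WANCY cluster (mt-Tw, mt-Ta, mt-Tn, mt-Tc and mt-Ty) summed to 163 and 129 TPM in KH 0 h and 106 and 105 TPM in KH 144 h, and to 62.0 and 129 TPM and then 134 and 147 TPM in DNMT3ABKO. In KH both clusters lay lower at 144 h than at 0 h without overlap, in DNMT3ABKO the IQM cluster overlapped and the WANCY cluster lay higher. These sums were not tested.

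The level of nuclear-retained and RNA polymerase III RNAs can follow the way RNA was extracted and depleted. Of 7 such RNAs, 3 rose and 0 fell at 144 h in each line, with Malat1 at 0.50 in KH and 0.91 in DNMT3ABKO. Of all genes tested 27.4% in KH and 31.4% in DNMT3ABKO were called higher in these comparisons. miRNA genes took 3.30% of TPM in DNMT3ABKO 0 h replicate 1 and 0.797% to 1.98% in the other 11 libraries.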
